A study of Mus musculus with 68 samples.

Results

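The genes described here encode laminin receptors of basal keratinocytes, chains of their laminin ligand and a collagen of the hemidesmosome, the junction that anchors the epidermis: the integrin subunits Itga3, Itga6, Itgb1 and Itgb4, the laminin chains Lama3 and Lamb3, and the transmembrane collagen Col17a1. They were chosen by symbol, and all 16 probesets that carry 1 of these 7 symbols alone were read. Of those, 12 were among the 21581 probesets (12605 genes) tested across the series. The other 4 probesets, 3 for Itgb1 and 1 for Lama3, lay below the array median in all 68 arrays and give no level of their own.

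Hemidesmosomes rivet basal keratinocytes to the basement membrane. On the cell side, the integrin alpha6 beta4 and collagen XVII connect through plectin and the BP230 form of dystonin to the keratin filaments, and on the outside alpha6 beta4 binds laminin-332, which holds the chains encoded by Lama3 and Lamb3. Integrin alpha3 beta1 binds the same laminin but connects to actin instead, and basal cells lose most of these molecules when they leave the basement membrane and differentiate.

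The samples were papillomas, benign tumors raised on the back skin of FVBBX mice with the mutagen DMBA and the promoter TPA, each hybridized to its own Affymetrix mouse array. FVBBX mice descend from SPRET/Ei and FVB/N hybrids bred back to FVB/N, so each mouse carried a different mixture of SPRET/Ei and FVB/N alleles. All mice were 8 to 12 weeks old at the start and received 1 dose of DMBA followed by TPA for 20 weeks. The days alive given in the labels differed widely between mice and are missing for some. They entered no fit, and their part in the levels was not tested. In all, 68 papillomas came from 37 mice, 31 of them with 2 papillomas and 6 with 1. The susceptible class held 12 mice (22 arrays) with 9 to 35 papillomas at 20 weeks, 7 of them labelled female and 4 with an agouti coat. The intermediate class held 19 mice (35 arrays) with 2 to 7 papillomas, 10 female and 8 agouti. The resistant class held 6 mice (11 arrays) with 0 or 1 papilloma, 4 female and 5 agouti. Not all counts of the resistant mice matched their arrays or their class at 24 weeks. Mice 32 and 35 were counted at 0 papillomas at both 20 and 24 weeks but gave 2 and 1 papilloma arrays. By label the first papilloma of mouse 32 came at week 28, after both counts, and no such week is given for mouse 35. Mouse 10 was counted at 0 at 20 weeks with a first papilloma at week 12, and mouse 34 had 1 at 20 weeks and 7 at 24. Mice with many tumors gave no more arrays than the others. Papillomas are pieces of tissue that hold stroma as well as keratinocytes, and in such samples fewer cells of a type and less RNA per cell cannot be told apart.

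Values are log2 levels made by RMA, and the array medians lay between 5.18 and 5.28. The mean log2 level of a mouse's papillomas is used throughout, so n is the number of mice except where arrays are stated. As a check of the tissue, the mean level of Krt5, Krt14, Krt15 and Trp63 lay between 11.22 and 12.57 in all 37 mice. Markers of striated muscle ranged from 4.58 to 10.39 between mice. In 6 mice (8 arrays) Xist or a Y-linked gene went against the sex label. These were mouse 12 of the susceptible class, mouse 35 of the resistant class and 4 intermediate mice, and results that change without them are given both ways.

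Every member was well expressed. Of the 12 tested probesets, 11 exceeded the array median in all 68 arrays, and the weakest, Itga3 1460305_at, did so in 67. For each gene the probeset with the highest mean over 37 mice is called its leading probeset and stands for the gene below. Levels of different genes are not set against each other, since probesets differ in brightness.

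Among the ligand's chains, Lama3 (1427512_a_at) averaged 9.97 ± 0.63 (SD, n = 37) and ran from 8.75 in susceptible mouse 36 to 11.01 in intermediate mouse 8. Lamb3 (1417812_a_at) averaged 9.61 ± 0.54 and ran from 8.35 in susceptible mouse 31 to 10.67 in the same mouse 8. Both chains therefore spanned more than 2 log2 units between mice, with ranges of 2.26 and 2.32.

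Among the receptors, Itga6 (1422445_at), the alpha chain of the hemidesmosomal integrin, was the steadiest by leading probeset. Itga6 averaged 10.53 ± 0.30 with a range of 1.61, but its other probeset had a range of 3.5. Its partner Itgb4 (1427387_a_at) averaged 9.83 ± 0.43 and ran from 8.43 in mouse 31 to 10.51 in resistant mouse 35. Itga3 (1455158_at) averaged 9.21 ± 0.43, and Itgb1 (1452545_a_at), the beta chain that many integrins share, averaged 10.52 ± 0.40. Col17a1 (1418799_a_at) averaged 10.73 ± 0.43, from 9.54 in mouse 31 to 11.44 in intermediate mouse 15.

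Different probesets of a gene mostly ordered the mice alike. The 3 Itgb1 probesets correlated at r between 0.861 and 0.974, and Itga3 1421997_s_at followed the leading Itga3 probeset at r = 0.909. The 2 probesets of Itga6 were looser, with r = 0.739 and Spearman's rho = 0.523. Itga6 1422444_at spanned 3.5 log2 units, from 7.69 in mouse 36 to 11.19 in mouse 15, the same mice that were lowest and highest by the leading probeset.

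Start regions are shown for the members that the co-variation below contrasts. Lamb3, Itga3 and Col17a1 followed other members from mouse to mouse, and Itgb1 followed them least. Each window runs from 250 bases before to 50 after an annotated transcript start, 5′ to 3′, from RefSeq on GRCm38.p6; 4 of the 7 members matched the table with 1 or 2 windows each, 1 window per gene is printed, and Lama3, Itga6 and Itgb4 are named only. Capitals mark the GC box GGGCGG and the TATA box TATAAA, searched on both strands. The Lamb3 window is chr1:193301744-193302043 (+ strand), the Itga3 window chr11:95076665-95076964 (- strand), the Col17a1 window chr19:47691993-47692292 (- strand) and the Itgb1 window chr8:128685404-128685703 (+ strand).
Lamb3: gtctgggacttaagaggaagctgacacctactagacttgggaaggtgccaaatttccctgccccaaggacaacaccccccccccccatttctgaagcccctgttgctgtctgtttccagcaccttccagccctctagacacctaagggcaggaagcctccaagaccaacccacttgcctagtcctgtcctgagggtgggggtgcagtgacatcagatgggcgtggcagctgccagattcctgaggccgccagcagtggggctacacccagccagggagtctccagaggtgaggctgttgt
Itga3: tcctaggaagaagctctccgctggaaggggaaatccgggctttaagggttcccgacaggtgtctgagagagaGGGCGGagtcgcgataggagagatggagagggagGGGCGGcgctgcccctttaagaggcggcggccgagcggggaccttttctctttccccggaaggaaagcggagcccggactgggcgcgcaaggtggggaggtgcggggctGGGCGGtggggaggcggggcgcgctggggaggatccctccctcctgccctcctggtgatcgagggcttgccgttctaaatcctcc
Col17a1: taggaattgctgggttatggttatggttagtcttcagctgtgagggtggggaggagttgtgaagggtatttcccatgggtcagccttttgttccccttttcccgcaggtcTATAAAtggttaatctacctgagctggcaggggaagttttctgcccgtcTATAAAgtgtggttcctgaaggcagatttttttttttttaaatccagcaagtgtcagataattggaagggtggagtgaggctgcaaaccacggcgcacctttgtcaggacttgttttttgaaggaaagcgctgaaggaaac
Itgb1: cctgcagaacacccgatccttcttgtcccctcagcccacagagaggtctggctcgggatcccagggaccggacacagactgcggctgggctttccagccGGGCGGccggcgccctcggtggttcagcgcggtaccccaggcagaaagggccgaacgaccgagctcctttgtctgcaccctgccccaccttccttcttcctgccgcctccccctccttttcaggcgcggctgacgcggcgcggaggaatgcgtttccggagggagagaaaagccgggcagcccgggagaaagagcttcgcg

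The GC box stood 3 times in the Itga3 window and 1 time in the Itgb1 window, and in neither the Lamb3 nor the Col17a1 window. It is present in 35.7% of 32851 promoter windows of the same length. The TATA letters stood 2 times in the Col17a1 window and in none of the other 3, against 13.6% of all windows. The AP-1 letters TGANTCA, present in 7.81% of all windows, did not occur in the printed windows and occurred 1 time in the second Itga3 window, chr11:95069149-95069448. These are matches of letters only, and nothing about binding follows from them.

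The first comparison asked whether the adhesion genes differ between tumors of mice prone to papillomas and of mice that resist them. Levels in susceptible mice were lower for every member, by 0.22 to 0.61 on the log2 scale, but no member passed the threshold.

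Itga3 differed most. It ran from 7.95 over a median of 9.22 to 9.68 in susceptible mice and from 9.33 over 9.65 to 9.95 in resistant mice. The ranges overlapped, although 7 of the 12 susceptible mice lay below every resistant mouse. The difference was -0.61 ± 0.21 (SE, 0.66-fold), with an adjusted p of 0.294 by limma over all tested probesets. The raw exact permutation p was 0.0113 (two-sided, n = 12 and 6). The exact permutation p-values here and below were not corrected for the number of genes. The other Itga3 probesets gave -0.43 ± 0.14 (1421997_s_at, adjusted p = 0.284 by limma) and -0.50 ± 0.25 (1460305_at).

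Itgb4, the partner of alpha6, ran from 8.43 over 9.84 to 10.08 in susceptible mice and from 9.86 over 10.08 to 10.51 in resistant mice. Here 6 susceptible mice lay below all resistant ones and 3 resistant mice above all susceptible ones. The difference was -0.44 ± 0.20 (adjusted p = 0.473 by limma, raw exact permutation p = 0.0367). Itga6 averaged 10.42 ± 0.41 in susceptible and 10.71 ± 0.14 in resistant mice (SD), a difference of -0.29 ± 0.17 (SE). The raw exact permutation p of Itga6 was 0.102. The second Itga6 probeset gave -0.59 ± 0.31.

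For the laminin chains, Lamb3 averaged 9.41 ± 0.59 in susceptible and 9.91 ± 0.41 in resistant mice, and Lama3 averaged 9.73 ± 0.76 in susceptible and 10.17 ± 0.39 in resistant mice (SD). The differences of -0.50 ± 0.25 for Lamb3 and -0.44 ± 0.31 for Lama3 (SE) were smaller than the SD among susceptible mice, and the highest Lama3 level of either class was the 10.86 of susceptible mouse 11. Itgb1 differed by -0.36 ± 0.21 and Col17a1 by -0.22 ± 0.22. The raw exact permutation p was 0.0816 for Lamb3, 0.197 for Lama3, 0.118 for Itgb1 and 0.391 for Col17a1. Col17a1 reached 11.18 in a susceptible mouse, above all 6 resistant mice.

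**Figure D1:**
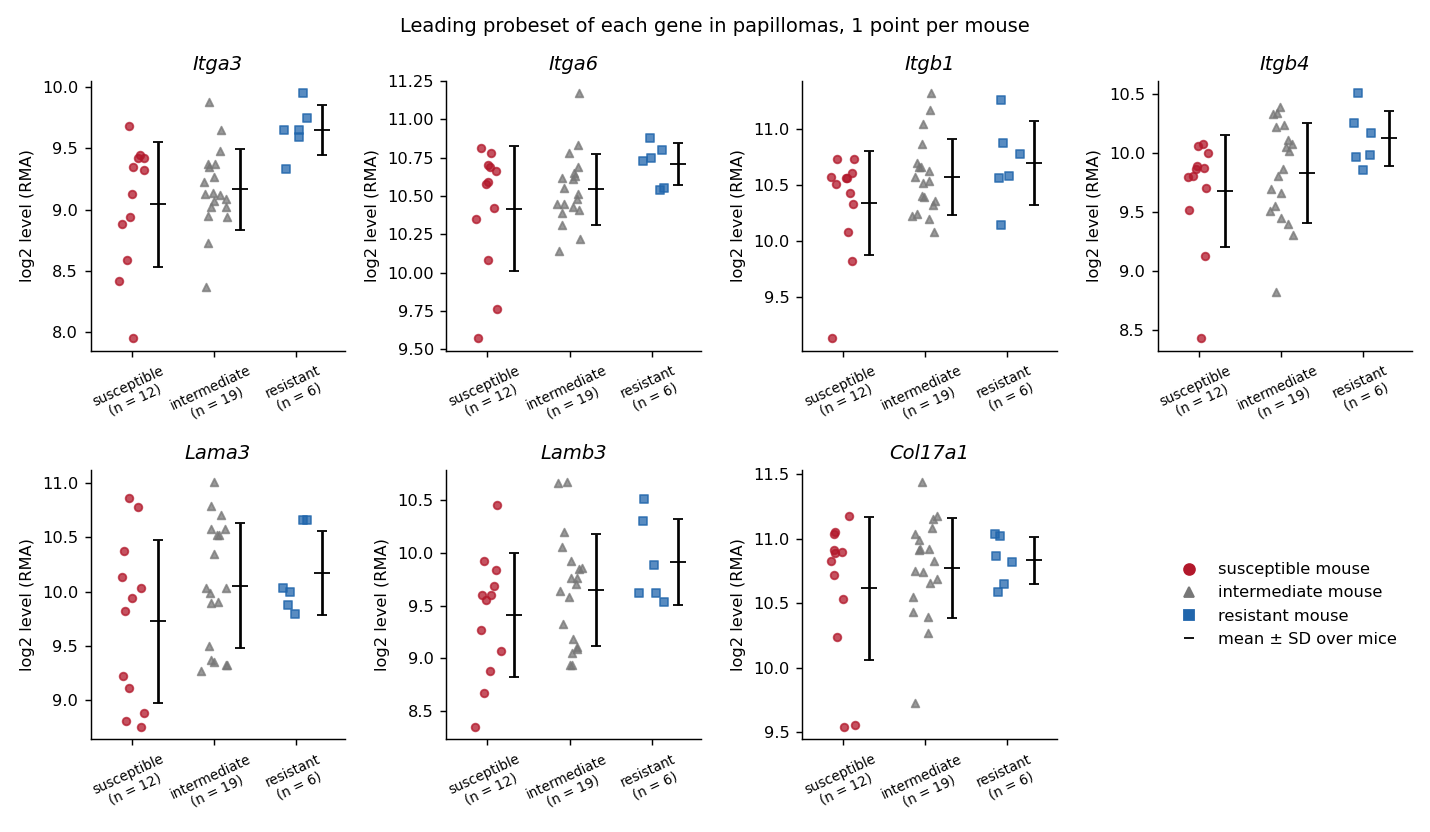
Log2 level of the leading probeset (vertical axis) in susceptible (12), intermediate (19) and resistant (6) mice, 1 point per mouse, with bars for the mean ± SD over mice. The classes overlap for all 7 genes, and the lowest susceptible mice lie far below the resistant ones.

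Of the 12 tested member probesets 0 were called between the classes, against 0.0510% of all tested probesets, or 11 of 21581. At an unadjusted p under 0.05 the count was 3 of 12, all lower in susceptible mice, of which 2 were Itga3 and 1 was Itgb4; in the series as a whole 9.52% passed that limit in either direction and 3.95% as lower. All 12 estimates were negative, with a median of -0.43, where 48.0% of all probesets were lower and their median was 0.008. The 12 estimates are not separate evidence, because the members rose and fell together from mouse to mouse (below) and share the same 18 mice. All 12 probesets remained uncalled under the 14 other settings tried and without each single mouse, and the leading probesets kept their sign throughout. In 4 cases a susceptible and a resistant mouse of the same start cohort and sex shared a cage by label. Within these cages Itga3, Itgb4 and Lamb3 were lower in the susceptible mouse in 4 of 4, Itgb1, Lama3 and Col17a1 in 3 and Itga6 in 2. Itga3 stood at 7.95 in susceptible mouse 36 and 9.95 in its resistant cage mate 32, while the other 3 cages differed by -0.22 to -0.01. With 4 cages an exact test over sign changes cannot go below p = 0.125, and with cage as covariate limma called 0 members. With the 3′ to 5′ ratios of control probesets as covariates, a measure of RNA quality, the median over members was -0.27. The log2 Actb ratio had a median of 0.82 in susceptible and 0.62 in resistant mice, and its part in the class difference beyond that fit was not tested.

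Across all 37 mice, every doubling of the papilloma number plus 1 went with a slightly lower level of each member. The slope was -0.16 ± 0.05 (SE) for Itga3, -0.16 ± 0.08 for Lama3, -0.15 ± 0.07 for Lamb3, -0.13 ± 0.05 for Itgb1, -0.11 ± 0.05 for Itgb4, -0.10 ± 0.04 for Itga6 and -0.07 ± 0.05 for Col17a1. Steepest was the second Itga6 probeset, 1422444_at, at -0.23 ± 0.06. None of the 12 was called by limma (smallest adjusted p = 0.179, Itga3 1460305_at), against 0.00463% of all probesets, 1 of 21581. At an unadjusted p under 0.05 the count was 11 of 12, all falling, where 10.9% of all probesets passed in either direction and 5.88% as falling. Col17a1 was the exception. As between the classes, the 12 estimates are not separate evidence, because the members rose and fell together over the same 37 mice. Several slopes were flatter without mouse 36 (below). Treating the 68 arrays as separate samples, which counts a mouse with 2 papillomas double, called 1 member, Itga6 1422444_at; of all probesets it then called 237.

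**Figure D2:**
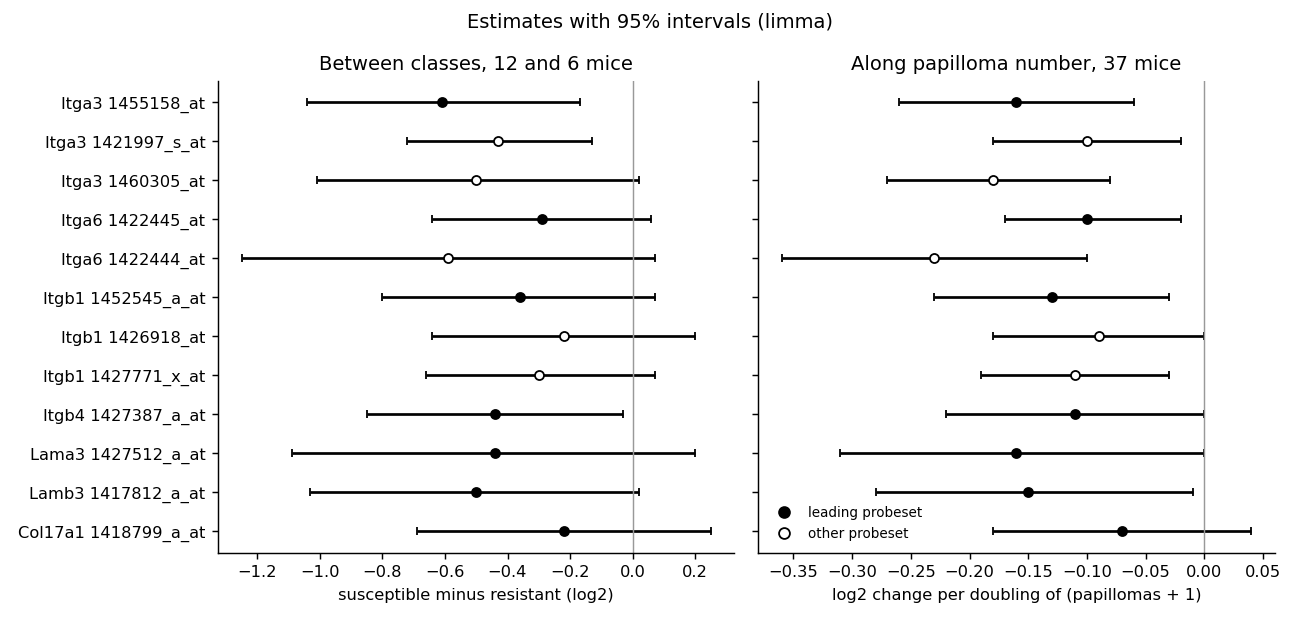
Estimates (points) with 95% intervals from limma for the 12 tested member probesets, as susceptible minus resistant on the left and as log2 change per doubling of papillomas plus 1 on the right. Filled points are leading probesets. All 24 points lie below 0, and 3 intervals on the left and 11 on the right stay below it.

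The lowest level of each leading probeset came from susceptible mouse 31 or 36, but intermediate mice were low as well. Mouse 36, with 35 papillomas the most affected, was among the lowest 9 of 37 mice for all 7 members, and so was mouse 12, with 16 papillomas. Mouse 31 (13 papillomas) and intermediate mouse 17 (3 papillomas) were so for 6 members, and intermediate mice 13, 14 and 26 for 5. At the other end, resistant mouse 35 and intermediate mouse 22 were among the highest 9 for 6 members. Susceptible mouse 11, intermediate mouse 8 and resistant mouse 34 were so for 5. Mice 31, 35 and 36 are represented by 1 array each.

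Other markers also stood out in the low susceptible mice 36, 31 and 12, but not alike in each. The mean level of the 4 basal markers was the lowest of all in mouse 36 (11.22) and the second lowest in mouse 31 (11.47), whereas mouse 12 stood at rank 10 from the bottom with 12.03. Muscle markers were at 8.95 in mouse 36 and 8.61 in mouse 31, against a median of 5.70, and leukocyte markers peaked in mouse 31 at 8.96. In mouse 12 leukocyte markers were at 7.21, rank 5 from the bottom. Mitosis markers were the lowest of all in mouse 36 (8.71). Endothelial markers were the lowest of all in mouse 12 (6.34) but stood at rank 35 from the bottom in mouse 31 (7.84). The log2 control ratios of mouse 31 were 0.51 for Gapdh, the highest of all mice, and 1.28 for Actb. Their part in the low member levels was not tested. Without mouse 36 the class difference of Col17a1 was -0.12, that of Itga3 -0.51 and that of Itgb1 -0.25, and without mouse 31 that of Itgb4 was -0.33; without mouse 36 the slope on papilloma number was -0.02 for Col17a1, -0.07 for Itgb1 and -0.06 for Itga6.

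Keratinocyte differentiation markers went the other way between the classes. All 7 suprabasal markers were higher in susceptible mice, with a median difference of 1.49, and all 7 had an unadjusted p under 0.05, but 0 were called. Their mean level ran from 11.31 to 12.60 in susceptible and from 8.30 to 11.32 in resistant mice, so the ranges met only at their ends. Krt77 differed by 1.91 ± 0.37 (SE; adjusted p = 0.0546 by limma) and Krt10, the keratin of cells that have left the basal layer, by 1.49 ± 0.32 (adjusted p = 0.0812). The simple epithelial keratins were lower in susceptible mice, Krt8 with a difference of -1.90 ± 0.59 and Krt18 with one of -1.52 ± 0.35 (0 of 2 called). The basal markers differed little: 4 of 4 were lower, with a median of -0.13, and Krt14 differed by -0.01 ± 0.10. Endothelial markers were lower in 5 of 5 cases (median -0.33, 0 called) and fibroblast markers in 3 of 6 (median -0.04, 0 called). The part of these shifts in the member differences was not tested.

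Most other adhesion genes were also lower in susceptible mice, none of them called, and no test set these lists against the members. Of the plaque genes and keratins that complete the hemidesmosome, 6 of 6 were lower in susceptible mice with a median of -0.15 and 0 called, led by Cd151, the tetraspanin that partners laminin-binding integrins (-0.33 ± 0.15), and plectin (Plec, -0.30 ± 0.14). Of 18 other laminin and basement membrane genes, 17 were lower, 0 were called and the median was -0.29. Npnt, a basement membrane ligand of integrin alpha8 beta1, differed by -0.56 ± 0.30 and Col4a1, a chain of collagen IV, by -0.50 ± 0.25. Of 10 other integrin subunits, 8 were lower (median -0.11, 0 called), with Itga8 at 0.44 ± 0.25 and Itga5, a fibronectin receptor chain, at -0.38 ± 0.22. Of 13 adhesion adaptors, 12 were lower (median -0.26, 0 called), with Bcar1 at -0.34 ± 0.12 and Zyx at -0.34 ± 0.18.

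Coat color was compared because an agouti coat in this cross marks a SPRET/Ei allele at Tyr. The 12 estimates, agouti minus white with sex as covariate, lay between -0.11 (Col17a1) and 0.02. Agouti mice averaged 9.17 ± 0.52 and white mice 9.24 ± 0.34 for Itga3 (SD, n = 17 and 20). Of the 12 members, 0 were called by limma (smallest adjusted p = 0.824) and 0 had an unadjusted p under 0.05, against 0.0741% called and 7.87% at that limit among all probesets. The 95% interval for Lama3, the widest, ran from -0.49 to 0.32, so a change of that size is not excluded by these mice.

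By sex, the estimates, female minus male by label with coat as covariate, lay between -0.18 (Itga6 1422444_at) and 0.28 (Lama3). Of the 12 members 0 were called by limma (smallest adjusted p = 0.472) and 0 had an unadjusted p under 0.05, against 0.0649% called and 15.9% at that limit among all probesets. Lama3 averaged 10.09 ± 0.67 in female and 9.80 ± 0.54 in male mice (SD, n = 21 and 16). Leaving out the 6 mice whose sex label was doubtful, the median over members was -0.06, against 0.05 with them.

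Likeness between tumors of a mouse was measured over the 31 mice with 2 papillomas. The intraclass correlation is the share of the variance that lies between mice, and it holds everything that tumors of a mouse share, sex and start cohort included. It was highest for Itga6 (0.459, adjusted p = 0.00835 by F test over all tested probesets, 30 and 31 degrees of freedom) and Lama3 (0.433). It was 0.394 for Col17a1, 0.338 for Itgb1 and 0.326 for Itgb4. The leading probesets of Itga3 (0.288, adjusted p = 0.0698) and Lamb3 (0.195, adjusted p = 0.160) did not pass. The other Itga3 probesets did, 1421997_s_at at 0.358 (adjusted p = 0.0324) and 1460305_at at 0.343 (adjusted p = 0.0386), by the same F test. In all 10 of 12 member probesets were called, against 71.0% of all tested probesets, 15312 of 21581. The median over members was 0.361 and that over all probesets 0.435, and Lamb3 lay at percentile 12.9 of all tested probesets.

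Several of these calls depended on the setting. With sex and start cohort removed, 2 of 12 member probesets were called. Leaving out the 6 mice with a doubtful sex label also gave 2, and with the control ratios removed 6 were called. Without mouse 12, low in both papillomas, 4 were called and the value of Itga6 was 0.297; without mouse 14, 6 were called, and Itgb4 was at 0.159 and Col17a1 at 0.277. Without mouse 10 all 12 were called and Lamb3 was at 0.365. Itgb4 lost its call without any 1 of 19 mice and Itgb1 without any 1 of 7, whereas Itga3 gained one without mouse 10, 15 or 32.

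The largest gaps between tumors of 1 mouse were those of the laminin chains. For Lamb3 the gap between both papillomas of a mouse had a median of 0.23, against 0.55 between papillomas of different mice, yet it exceeded 1 in 6 mice. In resistant mouse 10 Lamb3 was at 9.12 in the first papilloma and 11.9 in the second, a gap of 2.77, and Lama3 at 9.72 and 11.6. Intermediate mouse 22 had Lamb3 at 9.81 and 11.5 and Lama3 at 10.13 and 11.45. In resistant mouse 32 the first papilloma was the higher, with Lama3 at 10.73 and 8.85, Lamb3 at 10.34 and 8.89, and Itga3 at 10.6 and 9.30. In each of these 3 mice both chains thus stood high in the same tumor.

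The log2 Actb control ratio of the first and second papilloma was 0.52 and 0.45 in mouse 10, 0.58 and 0.70 in mouse 22, and -0.24 and 0.59 in mouse 32, and its part in these gaps was not tested. For the leading Itga3 probeset a mouse's own papillomas differed as much as those of different mice, with a median gap of 0.40 in both cases. Over the 10 susceptible, 16 intermediate and 5 resistant mice with a pair, the median Lamb3 gap was 0.19, 0.25 and 0.90, and the median Lama3 gap 0.29, 0.43 and 0.99. It was 0.08, 0.35 and 0.59 for Itga3, 0.15, 0.28 and 0.64 for Itgb4, 0.23, 0.28 and 0.56 for Col17a1, and 0.26, 0.24 and 0.50 for Itgb1. The medians of Itga6 went the other way, with 0.19, 0.25 and 0.09, but its largest gap of all, 0.72, was in resistant mouse 10. With 5 resistant pairs these are given as a description.

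**Figure D3:**
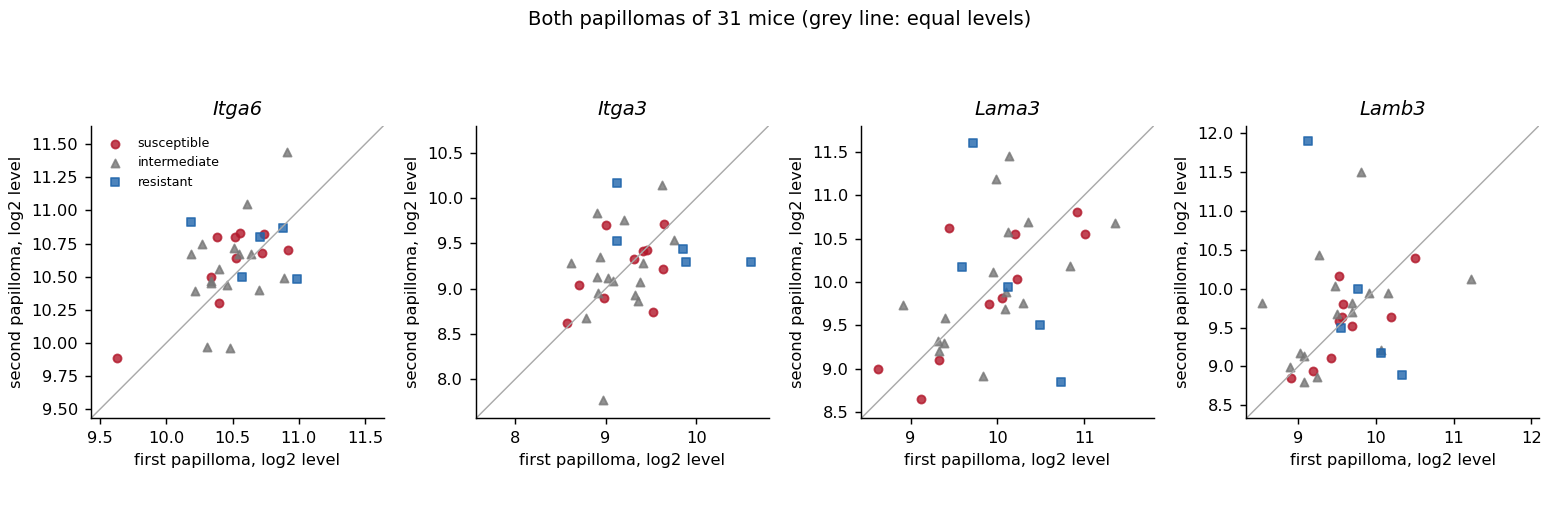
Log2 level in the second papilloma (vertical axis) against the first (horizontal axis) for Itga6, Itga3, Lama3 and Lamb3, 1 point per mouse with 2 papillomas (31 mice), marked by class; the grey line marks equal levels. Most points lie near the line, and resistant mouse 10 stands at 9.12 and 11.9 for Lamb3.

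The members varied together from mouse to mouse. Lama3 and Lamb3, chains of 1 laminin encoded on chromosomes 18 and 1, were the closest pair over the 37 mice, with Pearson's r = 0.916 and Spearman's rho = 0.918 (permutation p = 1e-05 for each, the smallest that 100000 permutations can give). Among 21580 tested probesets Lamb3 ranked first for Lama3 and Lama3 first for Lamb3 (adjusted p = 1.23e-11 and 8.76e-12 by limma). Without the 2 mice farthest from the median of Lama3, r was 0.904. It was 0.917, 0.984 and 0.908 within the 3 start cohorts with 6 or more mice (6, 8 and 9 mice). Differences between both tumors of a mouse, which share the host and its cohort, correlated at 0.906 over 31 mice. That value was computed about 0, without subtracting the mean difference, and so is not Pearson's r. In all, 21 pairs of members were compared in this way.

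The chains of the hemidesmosomal integrin followed each other less closely. For Itga6 and Itgb4 r was 0.711 and rho 0.699 (permutation p = 2e-05 for each), r without the 2 farthest mice was 0.743 and r within the start cohorts was 0.930, 0.803 and 0.698. Among the probesets most like Itga6, Itgb4 had rank 12, Itga3 rank 1 and Col17a1 rank 2. Itga3 and Itga6 reached 0.813 (rho 0.759), each first for the other, although these alpha chains do not pair with each other. Itga6 and Col17a1 also reached 0.813 (rho 0.663), and Itgb4 and Col17a1 0.821 (rho 0.674). Itgb4 and Lamb3, receptor and ligand, reached 0.791 (rho 0.752). These 4 relations had a permutation p of 1e-05 for r, and r without the 2 farthest mice lay between 0.692 and 0.763.

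Itgb1 had the weakest relations. Its r with the other members lay between 0.310 and 0.572, and with its own partner Itga3 it was 0.425 (rho 0.340, raw permutation p = 0.0102 and 0.0412), at rank 1105 of 21578 for Itga3 and not called (adjusted p = 0.0979 by limma). The weakest Itga3 probeset, 1460305_at, was called with Itgb1 (r = 0.603, adjusted p = 0.00229 by limma), so this relation differs between probesets of Itga3. For the leading probeset, without the 2 farthest mice that r was 0.328, and within the start cohorts it was -0.301, 0.780 and 0.446. Itgb1 and Itga6 gave 0.421, which became -0.0641 without the 2 farthest mice, so that relation rests on them. Mouse 36, lowest for both genes, is 1 of the mice that carry these values. Itgb1 was called with Lama3 (0.566) and Lamb3 (0.572), but those calls were lost under 5 and 2 of the 6 other settings.

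**Figure D4:**
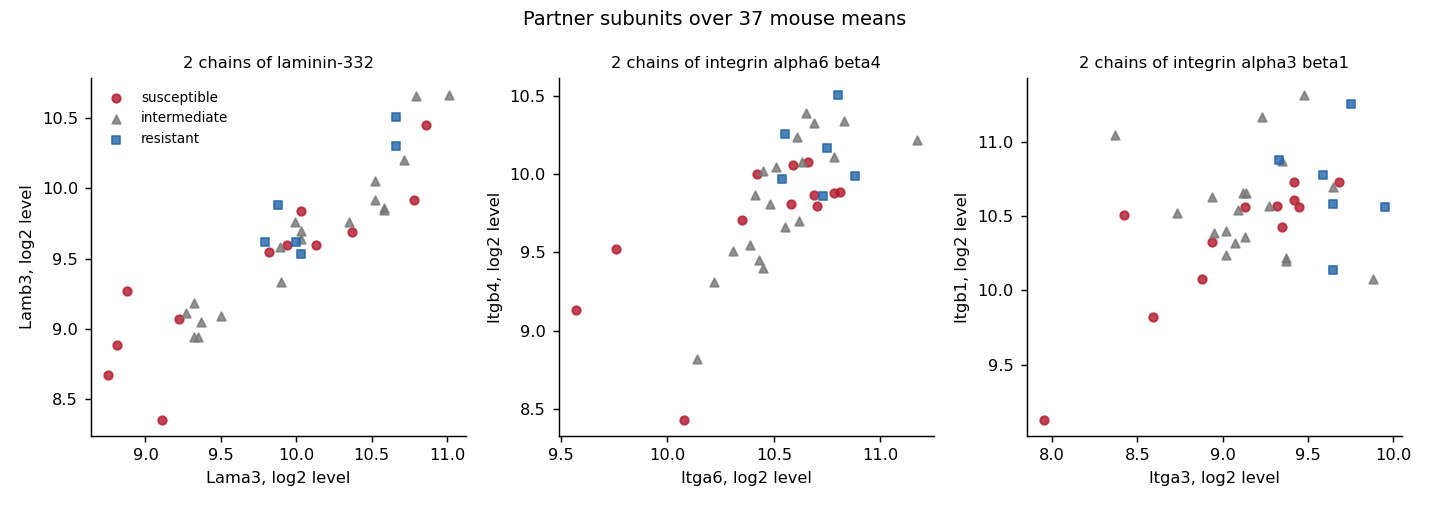
Log2 level of 1 chain against its partner over 37 mouse means, marked by class, for the laminin-332 chains, integrin alpha6 beta4 and integrin alpha3 beta1. The laminin chains lie along a line (r = 0.916), alpha6 and beta4 scatter more (r = 0.711), and Itga3 and Itgb1 form a cloud (r = 0.425) in which mouse 36 is the lowest point.

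Called relations were counted against the background of each gene. With Lama3, 10 of the 11 other member probesets rose together with it, against 0.575% of all tested probesets, and with Lamb3 also 10 of 11, against 1.08%. With Itgb4 it was 8 of 11 (2.10% of all), with Col17a1 8 of 11 (4.34%), with Itga6 7 of 10 (1.48%) and with Itga3 6 of 9 (2.40%). With Itgb1 it was 3 of 9, against 9.19% of all probesets, the largest background of the 7. All 21 values of r were positive. In both directions 17 of the 21 gene pairs were called, and the 4 that were not all involved Itgb1, with Itga3, Itga6, Itgb4 and Col17a1.

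By the 5 probesets most like each member, Itgb4 was most like Patj (r = 0.841), a polarity protein of tight junctions, followed by Col17a1. Col17a1 was most like Sdc1 (0.824), the heparan sulfate syndecan of keratinocytes. Itga6 was followed, after Itga3 and Col17a1, by Dip2b (0.799), Fat1 (0.756) and Cd44 (0.729), a hyaluronan receptor, and Itga3, after Itga6, by Abl2 (0.794), Iqgap1 (0.793) and the cyclin Ccnd1 (0.785). Lama3 was followed, after Lamb3, by Plec (1434610_at, 0.745), which anchors keratins at the hemidesmosome, and Lamb3, after Lama3 and Itgb4, by Aplp2 (0.749). Itgb1 was most like Rbpms (0.872), Lims1 (0.830), the adaptor PINCH that joins integrins to actin, Msn (0.822), a linker of actin to the membrane, Mtpn (0.821) and Prkar1a (0.818). The other 2 tested Lims1 probesets reached 0.535 (1418230_a_at) and 0.162 (1418232_s_at) with Itgb1, so this likeness varies with the probeset.

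Of the 6 genes that complete the hemidesmosome, 4 rose with Col17a1 and 4 with Itga6, 3 with Itga3, 2 each with Itgb4, Lama3 and Lamb3, and 1 with Itgb1. Krt5, a basal keratin, reached 0.772 with Col17a1, and Plec (here 1419835_s_at) 0.705 with Itga6. Erbin, which binds beta4 in the plaque, stayed between 0.0152 and 0.239 with Itga6, Itgb4, Lama3 and Col17a1. Of 18 other basement membrane genes, 2 to 4 rose with each of the members other than Itgb1. Agrn, the proteoglycan agrin, reached 0.774 with Itgb4, and Col18a1 0.643 with it. With Itgb1, 6 rose and 1, Lamc3, fell (r = -0.495). Those were Lamc1 (0.641), Col4a2 (0.589), Lamb1 (0.584), Dag1 (0.550), Col18a1 and Nid2, of which Lamc1 and Lamb1 are chains of laminins other than laminin-332.

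Among 13 adhesion adaptors, 4 rose with Itgb1, namely Tln1 (talin, 0.654), Zyx (0.632), Ilk (0.602) and Vcl (0.455), while 0 rose with Col17a1 and 1 to 3 with the other members. Vcl reached higher values with Itga6 (0.616) and Itga3 (0.574), and was called with both. Src reached 0.737 with Itga3. Of the 10 other integrin subunits, Itga2, a partner of Itgb1, rose with Itgb1 (0.583), Lama3 (0.593) and Lamb3 (0.580), Itga5 with Itgb1 (0.442) and Itgb6 with Col17a1 (0.462). Basal markers rose with Col17a1 in 3 of 4 cases (Krt5, Krt14 and Trp63, at 0.745), with a median r of 0.708, and with Itgb1 in 0 of 4 (median 0.263). The 7 suprabasal markers had median values of r between -0.395 with Itga3 and 0.0596 with Col17a1, and 1 of them fell with Itga3. Fibroblast markers were called with no member (0 of 6 in each case). Both simple epithelial keratins rose with Itgb1 (Krt8 at 0.559, Krt18 at 0.558), as did 1 of 3 mitosis markers (Top2a, 0.480), 2 of 6 leukocyte markers and 1 of 5 endothelial ones. None of these was called with another member. A smaller r sufficed for a call with Itgb1 (Itga5, 0.442) than with the laminin chains. The simple keratins had a median r of 0.468 with Lama3 and 0.484 with Lamb3, not called. Counts of calls with Itgb1 therefore do not show traits particular to it. The part of tissue composition in the co-variation was not tested. The members' r with the log2 Actb control ratio lay between -0.279 (Lamb3) and -0.0637 (Itgb4).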

How the data were processed

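Papilloma RNA was measured on 68 Affymetrix whole-genome mouse arrays. The authors deposited log2 values per probeset made by RMA, which corrects background, normalizes by quantiles and summarizes probes; its version is not given in the sources used here. All 45101 probesets and all columns were read. Probesets with 1 symbol (34945; 932 had several) that lay above their array's median in 11 or more arrays (68 in all) were tested, 21581 in all. Papillomas of a mouse were averaged on the log2 scale. Classes followed the labels, with limits of over 7 for susceptible and under 2 for resistant mice at week 20. Nothing in the labels shows separate extraction batches, so start cohorts (7 dates of first treatment) served as batches.

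Classes, papilloma number, coat, sex and co-variation were tested in R 4.3.3 with limma 3.58.1, adjusting p-values over all tested probesets by Benjamini-Hochberg (threshold 0.05). Python 3.11.15 (pandas 2.3.3, matplotlib 3.10.9, scipy 1.17.1, numpy 2.4.6) gave the intraclass correlations, the exact permutations over 18564 splits of 18 mice and the figures. Leading probesets were those of highest mean. Where list genes are named, they are up to 4 past the threshold or, where none passed, the 2 of largest difference; like genes are the 5 with the highest r. Members and lists were chosen with earlier results of these data known. Scripts were tested on simulated data. Alternatives covered the filter, mouse as a random block, arrays as samples, first papillomas, centring, mice of doubtful sex label, control ratios, start cohort, sex, coat, the 24-week count, ranks and leaving out each mouse; the within-mouse differences and the comparison within cages were added after seeing the data. The number of mice limits precision, and signal below the array median lies near background.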

Additional observations from a re-analysis of the deposited data

Results flagged for a closer look

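Among the 6 resistant mice, each of the 12 tested member probesets was searched for a mouse far from the others. Chance alone flags about 1 in 20 such groups. Itga6 1422444_at was at 9.52 in mouse 35, against 10.22 to 10.41 in the other 5 mice, a gap of 0.786 of the whole range. The leading Itga6 probeset did not set this mouse apart: it was at 10.80 in mouse 35, within the 10.54 to 10.88 of the class. Mouse 35 is represented by 1 array, has a doubtful sex label and had the highest Itgb4 level of all 37 mice.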

How the results depend on the processing

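No paired analysis was possible because the numbers in the labels count papillomas within a mouse, and the classes hold different mice. Cages that held both classes (4, with 8 mice), chosen after seeing the data, gave a median over members of -0.39 with cage as covariate, against -0.43. No estimate of a leading probeset by class or papilloma number changed sign under any setting or without any mouse. Of 1138 values of single results recomputed, 1082 kept their side of the threshold or moved by less than their spread. Of the rest, 48 lost a call, 5 gained one and 3 moved by more, and none of those with a call turned round. No member was called by class or papilloma number, so those values had no call to lose. The lost calls were all of likeness within a mouse or of relations between members.

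Counts over all tested probesets varied more. Between the classes (11) they were 2 with mouse as a random block, 366 with arrays as samples, 0 with first papillomas, 28 without mice of doubtful sex label, 0 with control ratios, 1 with start cohort, 1 with coat, 0 with classes at 24 weeks (16 susceptible and 3 resistant mice), 19 with 3 classes in the fit, 0 within the shared cages and 4 to 89 without 1 mouse, with 6 without mouse 1, 19 without mouse 10 or 31, 89 without mouse 29, 4 without mouse 34 and 36 without mouse 37. For papilloma number (1) they were 0 with the random block, first papillomas, control ratios, the 24-week count or ranks, 237 with arrays as samples (1 of them a member, against 0), 110 without doubtful mice, 11 with start cohort and 0 to 58 without 1 mouse, with 21 without mouse 3, 58 without mouse 35 and 0 without mouse 32 or 36. For coat (16) arrays as samples gave 207, and single mice 13 to 32, the highest without mouse 3. For sex (14) the counts were 7 with the stricter filter, 48 with the random block, 462 with arrays as samples, 31 with control ratios, 35 with start cohort and 11 to 53 without 1 mouse, with 33 without mouse 7, 53 without mouse 15 and 25 without mouse 25. The causes were not tested.

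For likeness within a mouse (15312) removing sex and start cohort left 9548, and leaving out 1 mouse gave 14065 to 16119. Of member probesets (10) there were 2 with sex and start cohort removed, 2 without doubtful mice, 6 with control ratios removed and 4 to 12 without 1 mouse. The median coat difference over members was 0.09 with first papillomas and 0.05 without mouse 36, against -0.05. Itga3 and Lama3 lost their called relation without doubtful mice (r = 0.580), and Itga3 and Itgb1 gained one in first papillomas (0.608).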

Other observations

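Several neighbors of the members were more alike within a mouse than any member was. The intraclass correlation over 31 mice was 0.796 for Col4a1 and 0.691 for Col4a2, chains of collagen IV, 0.652 for Col7a1, the collagen of anchoring fibrils, 0.632 for Cd151 and 0.768 for Itga2, against 0.195 to 0.459 for the 12 member probesets. Plec, which binds beta4 in the hemidesmosome, reached 0.0692 by its probeset 1419835_s_at. These genes were chosen after their values were seen, and the differences between them and the members were not tested.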
